A study of Mus musculus with 2 samples.

Results

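Among single cells of mouse heart valves, 63 of 4473 cell barcodes were endothelial and led by UMIs of Fabp4, Vwf, Edn1 or Cytl1. They comprised 15 of 961 barcodes in a library of postnatal day 7 (P7) and 48 of 3512 in a library of postnatal day 30 (P30). Both libraries came from aortic and mitral valves of strain C57BL/6J, with no treatment or altered gene named in the labels. Cells were profiled by Drop-seq, in which droplets join each cell with a barcoded bead and the 3' ends of its transcripts are counted by unique molecular identifier (UMI). With 1 library per age, differences between ages lack a replicate check, and all values below are given without tests or p-values. Run names in the labels also differ between the libraries, so age and run cannot be told apart, and how many animals were pooled, and of which sex, is not stated in those labels.

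The 63 members were chosen by measured counts. A barcode qualified with at most 20000 UMIs, with Col1a1, Col1a2, Col3a1 and Dcn together under 1% of its UMIs, and with at least 2 UMIs of Pecam1, Cdh5, Emcn, Egfl7, Esam and Tie1, which are expressed across endothelium. It was a member where the summed UMIs of Fabp4, Vwf, Edn1 and Cytl1 exceeded both the sum of Prox1, Cldn11 and Foxc2 and the sum of Wnt9b, Pthlh and Dkk2. These 20 genes were left out of the counts of higher and lower genes, and levels of the 4 leading genes are given as a description only. The remaining endothelial barcodes, 80 at P7 and 159 at P30, served as the comparison, and 33 and 44 of them were led by the Prox1 sum and 31 and 86 by the Wnt9b sum. Another 13 and 18 had no UMI of the 10 genes in these sums, and 3 and 11 were led by no single sum. Of the comparison barcodes, 17 and 65 also held a UMI of the 4 leading genes.

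Valve endothelium is a single layer that covers the leaflets, is bathed in blood and arises largely from the endocardium, the inner lining of the heart. Endothelin-1, encoded by Edn1, is a constrictor peptide released by endothelium, and von Willebrand factor, encoded by Vwf, is the clotting glycoprotein stored in endothelial Weibel-Palade bodies. Fabp4 encodes a fatty acid binding protein well known in capillary endothelium and fat cells, and Cytl1 encodes a small secreted protein. On the mm10 build the genes lie at chr3:10204088-10208576 (Fabp4, minus strand), chr6:125546774-125686679 (Vwf, plus strand), chr13:42301476-42307990 (Edn1, plus strand) and chr5:37735519-37739820 (Cytl1, plus strand), each span being the whole gene.

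The class was not uniform, and its leading genes differed between the libraries. Members were 15.8% of endothelial barcodes at P7 (95% Clopper-Pearson interval 9.12 to 24.7) and 23.2% at P30 (17.6 to 29.5), and these intervals overlap. At P7 a Vwf UMI was found in 11 members, Edn1 in 9, Cytl1 in 5 and Fabp4 in 1. At P30 Cytl1 was found in 42 members, Fabp4 in 24, Edn1 in 24 and Vwf in 22. Cytl1 was thus the most widespread of the 4 at P30, and Vwf at P7. No P7 member and 8 P30 members held UMIs of all 4 genes, and 6 and 13 held UMIs of exactly 1. Vwf and Edn1 were found together in 5 P7 and 14 P30 members, and Fabp4 and Cytl1 together in 0 and 22.

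**Figure D1:**
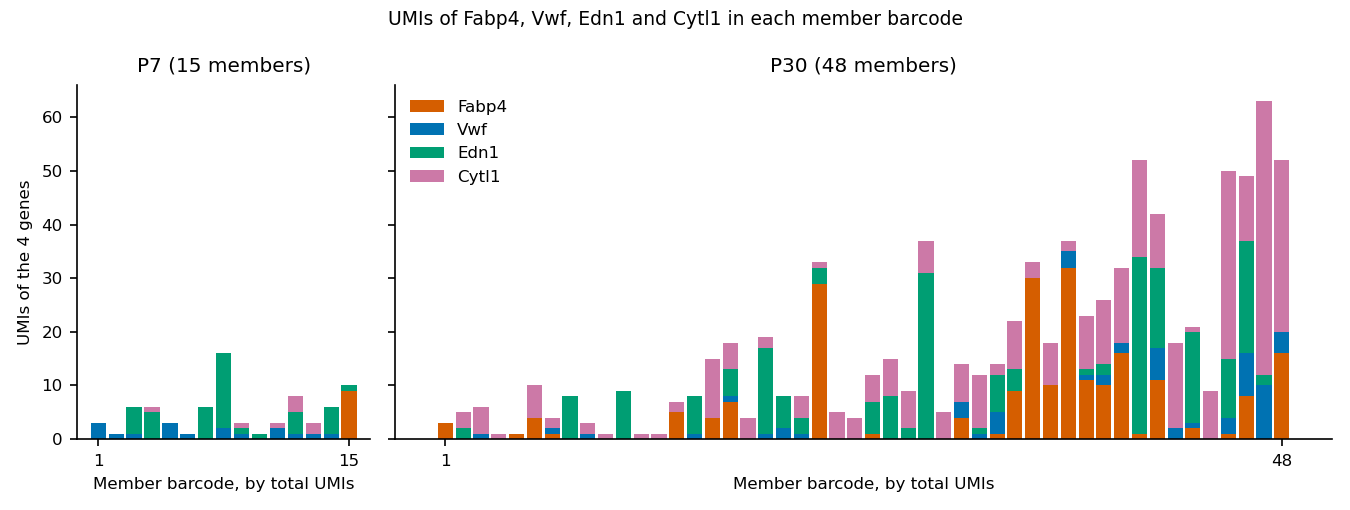
UMIs of Fabp4, Vwf, Edn1 and Cytl1 (stacked bars, vertical axis in UMIs) in each of the 15 P7 and 48 P30 member barcodes, placed along the horizontal axis by total UMIs. Fabp4 appears in 1 P7 bar, and Cytl1 in 42 of the 48 P30 bars.

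Summed over members and given per 1000000 UMIs (CPM), Edn1 stood at 744 at P7 and 822 at P30. Vwf stood at 301 and 220 CPM. Fabp4 stood at 159 CPM at P7, from 9 UMIs that were all in 1 barcode, and at 810 CPM at P30. Cytl1 stood at 142 and 1311 CPM. Because counts of these genes selected the members, the levels are descriptive and carry no test. Free RNA from other cells can also give UMIs, so the share of barcodes with a UMI was set beside that in interstitial-type barcodes (collagen sum of 1% or more, under 2 endothelial UMIs), after each barcode was thinned to 500 UMIs. Thinned shares with Edn1 were 30.1% and 24.6% in members and 0.334% and 0.378% in interstitial-type barcodes. Cytl1 differed from the other 3 genes in this respect, with 7.82% and 39.8% in members and 1.23% and 8.24% in interstitial-type barcodes. Unthinned, Cytl1 was found in 33.3% and 87.5% of members and in 4.50% and 19.7% of interstitial-type barcodes, at median depths of 2579 and 4817.5 UMIs in members and 2253 and 2546.5 in interstitial-type barcodes.

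Some memberships rested on few molecules. The lead of the 4-gene sum was exactly 1 UMI in 3 P7 and 6 P30 members, and the median lead was 3 and 9.5 UMIs. Just outside the rule, 3 P7 and 10 P30 endothelial barcodes had tied sums above 0, and 1 and 6 barcodes met all other conditions with 1 endothelial UMI. Members with a collagen sum from 0.9% to 1% numbered 1 and 6, and barcodes from 1% to 1.1% that met the rest numbered 0 and 4.

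The deposited tables held 3116184 UMIs at P7 and 11267724 at P30. Members held 56460 and 267761 of them, with 1040 to 12344 UMIs per barcode at P7 and 780 to 16987 at P30. The deepest member held 21.9% of the member UMIs at P7 and 6.34% at P30. No barcode occurred in both libraries, and no pair of member barcodes differed by 1 base, but 6 members in each library had a barcode that ended in the undetermined base N. Malat1, a nuclear RNA, took 1.33% of member UMIs at P7 and 4.16% at P30, beside 1.24% and 6.40% in the other endothelial barcodes. Mitochondrial mt-Rnr2 took 0.333% and 3.01% beside 0.325% and 3.52%.

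Markers of other cell types were low in members, except those of red blood cells and of interstitial cells. Adipocyte markers (8 genes) had no UMI in either library. Macrophage markers stood at 17.7 and 41.1 CPM in members and 109 and 253 CPM in the other endothelial barcodes, with 13 of 14 markers at 0 at P7 and 8 at P30. T cell, platelet and mural markers summed to 1, 1 and 2 UMIs at P7 and to 3, 4 and 16 UMIs at P30. Cardiomyocyte markers (13 genes) summed to 11 and 25 UMIs, or 195 and 93.4 CPM, beside 73.6 and 85.3 CPM in the other endothelial barcodes. Melanocyte markers summed to 2 and 0 UMIs in members and stood at 14.7 and 398 CPM in the other endothelial barcodes. At P30 the barcodes with no UMI of the 10 genes held them at 9621 CPM. Interstitial markers outside the rule (19 genes) summed to 4003 CPM at P7 and 1539 CPM at P30 in members, 3002 and 2106 CPM in the other endothelial barcodes, and 20728 and 24074 CPM in interstitial-type barcodes. Erythroid markers (7 genes) stood at 2604 CPM in P7 members against 5663 CPM in the other endothelial barcodes, and at 14856 against 744 CPM at P30. At P30, 2 members carried 3847 of the 3978 erythroid UMIs.

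Some defining genes of heart capillaries were nearly absent, and the capillary list as a whole did not set members apart from the other endothelial barcodes. Gpihbp1, which anchors lipoprotein lipase in capillaries, had no UMI in members of either library. The floor of 3 counts that stands for no UMI equals 53.1 CPM at P7 and 11.2 CPM at P30. Cldn5, a tight junction gene of vascular endothelium, had 0 UMIs at P7 and 2 UMIs, in 1 member, at P30. Cd36, a fatty acid transporter, had 13 UMIs at P7, of which 12 were in 1 member, and 14 UMIs in 4 members at P30. Fabp5, another fatty acid binding protein, was by contrast at 549 and 680 CPM in members and 521 and 291 CPM in the other endothelial barcodes. Of 24 genes of capillaries and fatty acid uptake, which leave out Fabp4 of the rule, 5 were measured in both libraries and none was higher or lower in both. The list summed to 1612 and 2476 CPM in members and to 1669 and 2503 CPM in the other endothelial barcodes. Because these values do not mark the class as capillary, it is named here by the genes of its rule.

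Members stood higher than other valve endothelium in both libraries in genes that included Nrp1, Npr3, Cpe, Calcrl, Clec14a, Bmx, Selp and Sele. Nrp1, the co-receptor for VEGF and semaphorins, was at 1629 CPM in members and 174 CPM in the other endothelial barcodes at P7, and at 2054 and 149 CPM at P30. Npr3, the clearance receptor for natriuretic peptides and a marker of endocardium, was at 372 against 32.4 CPM at P7 and 164 against 11.7 CPM at P30. A gene was measured with at least 10 counts and 20 CPM in the higher group, and was called where levels differed at least 2-fold and the 95% counting interval excluded equal levels. Of 3494 genes measured in both libraries, 57 were higher in both (1.63%) and 75 lower in both (2.15%). Members held fewer UMIs (56460 and 267761) than the other endothelial barcodes (339759 and 597769). The minimum of 10 counts is therefore a higher CPM in members, and shares of higher and lower genes are not on an equal footing. Within single libraries, 4.09% of 4014 measured genes were higher and 5.06% lower at P7, and 5.16% of 6225 were higher and 8.82% lower at P30. The barcodes were sorted by counts from these same libraries, so the ratios describe the class and are no test of it, and the intervals cover counting error only. Across all measured genes the median log2 ratio was -0.36 at P7 and -0.22 at P30.

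**Figure D2:**
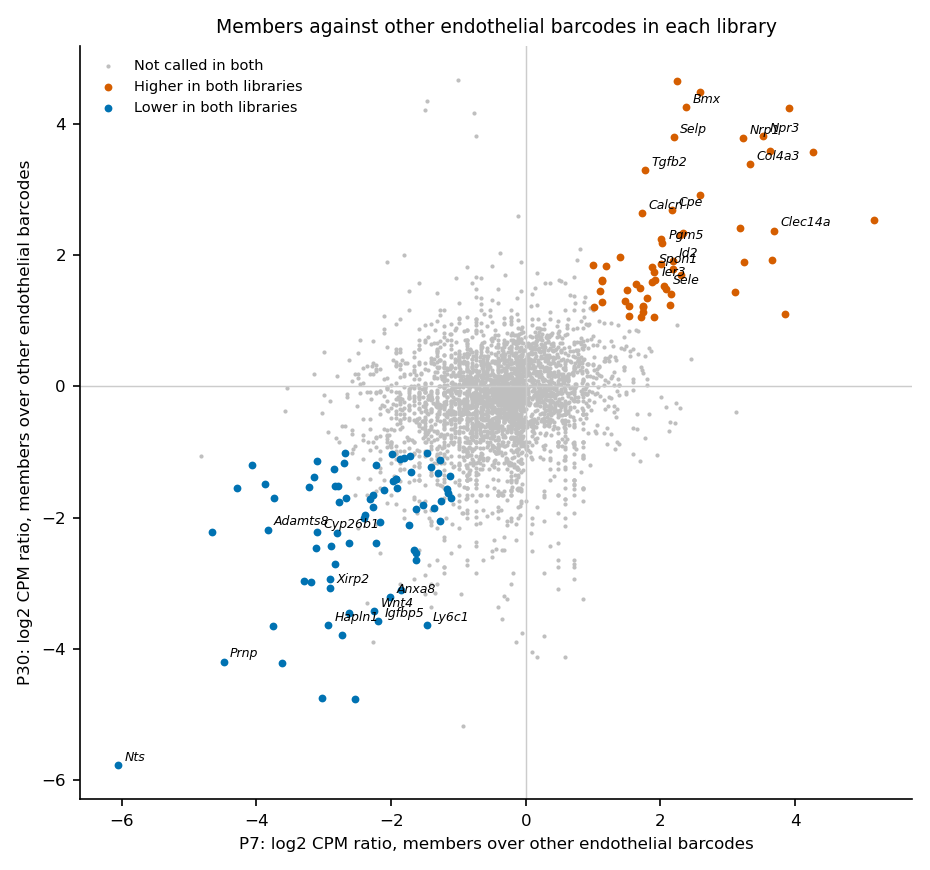
Log2 CPM ratio of members over other endothelial barcodes at P7 (horizontal axis) and P30 (vertical axis) for the genes measured in both libraries that had a ratio in both. Orange points are the 57 genes higher in both libraries, blue points the 75 genes lower in both, and Nts lies at the lower left with ratios of -6.05 and -5.76.

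The Nrp1 log2 ratio was 3.23 at P7 (95% interval 2.74 to 3.73) and 3.79 at P30 (3.46 to 4.13). UMIs of Nrp1 were found in 14 of 15 and 40 of 48 members, with a median of 11.4 and 17.6 per 10000 UMIs of a barcode and a highest value of 105 and 68.0. Interstitial-type barcodes held Nrp1 at 446 and 352 CPM, above the other endothelial barcodes and below members. The Npr3 log2 ratio was 3.52 (2.40 to 4.72) and 3.81 (2.65 to 5.21), from 7 members at P7 and 22 at P30. In interstitial-type barcodes Npr3 was at 5.15 and 1.95 CPM. Both genes were therefore high in members of each library, Nrp1 in nearly all of them and Npr3 in under 50%.

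Calcrl, the receptor subunit for adrenomedullin and calcitonin gene-related peptide, was at 1275 CPM in P7 members against 386 CPM in the other endothelial barcodes, and at 919 against 147 CPM at P30. Its log2 ratio was 1.73 (1.29 to 2.15) and 2.64 (2.28 to 3.01). Bmx, a non-receptor tyrosine kinase known from arterial endothelium and endocardium, was at 460 against 88.3 CPM at P7 and 1378 against 71.9 CPM at P30. Its ratio, 2.38 (1.57 to 3.19) and 4.26 (3.80 to 4.75), had intervals that did not overlap between the libraries, and the P7 ratio did not hold when each barcode was thinned at random to 500 UMIs (-0.59). Clec14a, an endothelial C-type lectin receptor, was at 567 against 44.1 CPM and 217 against 41.8 CPM. Id2, a transcriptional inhibitor responsive to BMP signalling, was at 1134 against 250 CPM and 1008 against 268 CPM.

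Cpe, the carboxypeptidase that trims peptide hormones, was at 1098 CPM in P7 members against 244 CPM and at 1412 against 219 CPM at P30. It was found in 13 and 42 members, and its log2 ratio was 2.17 (1.67 to 2.66) and 2.69 (2.40 to 2.99). Selp and Sele encode P-selectin and E-selectin, adhesion molecules that capture leukocytes on endothelium. Selp was at 514 against 112 CPM at P7 and 605 against 43.5 CPM at P30, and 48.3% of its P7 counts were in 1 member. Sele was at 1240 against 291 CPM at P7 and 254 against 90.3 CPM at P30. Tgfb2, a TGF-beta ligand, was at 903 against 265 CPM and 411 against 41.8 CPM, with 62.7% and 40.0% of its counts in 1 member. Without the deepest barcode of each class its P7 log2 ratio moved from 1.77 to 0.70, so the P7 level of Tgfb2 rested largely on that member. The other genes named by the rule were Col4a3, a basement membrane collagen chain, the adhesion-associated Pgm5, the matrix protein Spon1 and the stress-responsive Ier3, whose log2 ratios lay at 3.33, 2.03, 1.88 and 1.92 at P7 and at 3.38, 2.19, 1.81 and 1.62 at P30.

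Genes lower in members in both libraries included Nts, Igfbp5, Prnp and Hapln1. Nts, which encodes the peptide neurotensin, had 1 UMI in P7 members and 5 UMIs in P30 members, or 17.7 and 18.7 CPM. In the other endothelial barcodes Nts stood at 1174 and 1014 CPM, which gave log2 ratios of -6.05 (-11.36 to -3.56) and -5.76 (-7.39 to -4.53). Igfbp5, a binding protein of insulin-like growth factors, was at 177 CPM against 806 CPM at P7 and 370 against 4416 CPM at P30. Prnp, the prion protein gene, had log2 ratios of -4.49 and -4.19. Hapln1, a link protein of hyaluronan matrix, was at 88.6 against 677 CPM and 59.8 against 743 CPM.

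Xirp2, Anxa8 and Ptpre had no UMI in members of either library. With members set at 3 counts, Xirp2, an actin-binding repeat protein, gave log2 ratios of at most -2.90 at P7 and -3.06 at P30, and Anxa8, an annexin, at most -2.02 and -3.21. For Ptpre, a protein tyrosine phosphatase, the bounds were -1.73 and -2.11. Wnt4, a Wnt ligand, was at 0 UMIs in P7 members and 3 in P30 members against 253 and 120 CPM in the other endothelial barcodes. The proteases Adamts5 and Adamts8 and the retinoic acid hydroxylase Cyp26b1 were lower as well, with P30 log2 ratios of -3.10, -2.18 and -2.22. Stk38l, Fxyd5 and Ly6c1 completed the named genes, at -3.65, -1.53 and -3.63 at P30. All of these 14 genes, apart from Ptpre at P30, stood higher in the Wnt9b than in the Prox1 type. In the Wnt9b type Prnp reached 2426 CPM at P7 against 153 CPM in the Prox1 type and 53.1 CPM in members.

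**Figure D3:**
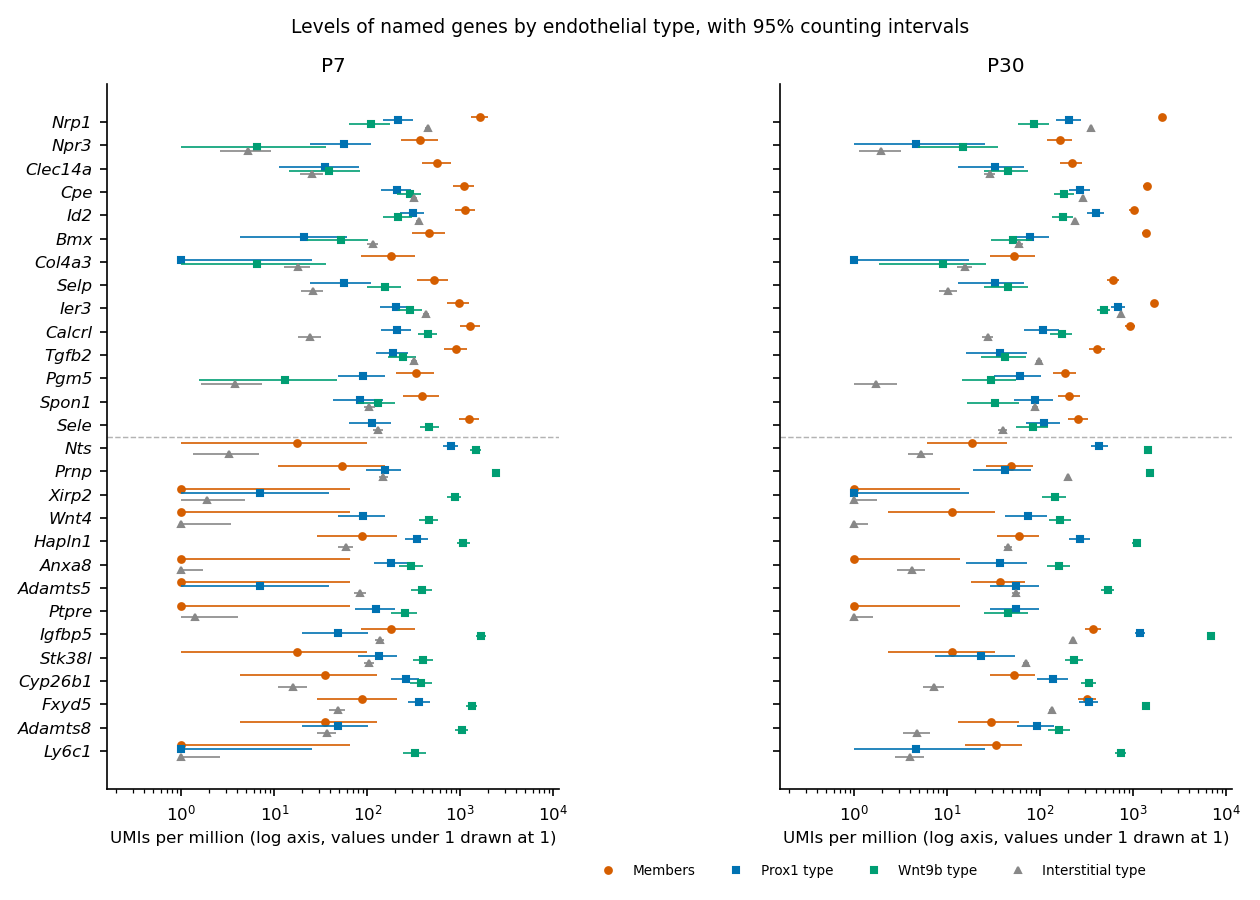
CPM (UMIs per 1000000, log axis) with 95% counting intervals for the 14 named higher genes (above the dashed line) and the 14 named lower genes (below it) in members, Prox1-type, Wnt9b-type and interstitial-type barcodes of each library. Members sit highest of the 4 groups for Nrp1, Npr3 and Calcrl in both libraries, while Prnp is lower in members than in the Wnt9b type but not than in the Prox1 type at P30.

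Against each named endothelial type alone, the profile split. Over the Prox1 type, 58 of 2281 measured genes were higher in both libraries (2.54%) and 39 lower (1.71%), and over the Wnt9b type 87 of 2764 were higher (3.15%) and 135 lower (4.88%). In both libraries and against both types at once, 32 of 1893 genes were higher (1.69%) and 13 lower (0.687%). The 32 included Nrp1, Npr3, Cpe, Calcrl, Bmx, Clec14a, Selp, Sele, Id2 and Tgfb2, and the 13 included Nts, Hapln1, Ptpre and Cyp26b1. Igfbp5 did not separate members from both types in the same way. At P7 it was lower in members (177 CPM) than in the Wnt9b type (1684 CPM) and higher than in the Prox1 type (48.7 CPM), and at P30 it was lower than in both.

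Gene lists of vessel identity gave no single match, and the lists share genes. Of 11 arterial genes measured in both libraries, 5 were higher in both (Nrp1, Bmx, Bmp4, Fbln2, Mgp) and 1 lower (Hey2), with list medians of 0.83 at P7 and 1.20 at P30. Bmp4, a BMP ligand, was at 354 against 41.2 CPM and 254 against 93.7 CPM. Fbln2, an elastic fibre protein, had log2 ratios of 2.19 and 1.79, and Mgp, an inhibitor of calcification, 1.02 and 1.20. Mgp was at 4031 CPM in interstitial-type barcodes at P7 against 762 CPM in members. The defining arterial genes Gja5, Dll4 and Sox17 were nearly absent. Gja5 had 0 and 1 UMIs in members, Dll4 had 0 and 2, and Sox17 had 1 and 6. Hey2, a Notch target of arterial cells, was lower in members, with log2 ratios of -1.63 (-3.95 to -0.01) and -2.65, from 3 UMIs in each library.

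Of the venous genes, Nr2f2 and Selp were higher in both libraries. Nr2f2, the transcription factor of venous identity, was at 248 against 79.5 CPM and 250 against 85.3 CPM. Of 14 endocardial genes, 4 were higher (Npr3, Plvap, Hmcn1, Cpe) and 1 lower (Hapln1), with medians of 0.64 and 0.46. Plvap, the diaphragm protein of fenestrae and caveolae, was at 336 against 147 CPM at P7 and 594 against 167 CPM at P30. Members thus carried called genes of the arterial, venous and endocardial lists alike. Of 9 lymphatic genes, 1 was higher (Nr2f2) and 1 lower (Nts), with medians of -0.45 and -0.99, and Lyve1, a lymphatic hyaluronan receptor, had 0 and 2 UMIs. Pan-endothelial genes outside the rule, 18 measured in both, included 2 higher (Plvap, Clec14a) and none lower, with medians of -0.03 and -0.02.

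Lists of functions for which Vwf and Edn1 are known are read beside the shares of all genes called in both libraries, 1.63% higher and 2.15% lower. Of 20 haemostasis genes, none was higher in both libraries and 1 was lower (Plat, the tissue plasminogen activator), with medians of -0.13 and -0.41. At P30 alone, 7 of 22 measured haemostasis genes were lower and 0 higher, where 8.82% of all measured genes were lower. At P7 alone, 2 of 20 were lower and 1 higher, where 5.06% of all were lower. Of 13 vasoactive genes, 2 were higher in both libraries (Calcrl, Npr3). Of 11 Weibel-Palade body and leukocyte adhesion genes 2 were higher in both (Selp, Sele) and 1 lower (Ccl7). Among 12 shear stress genes none was higher and 1 was lower (Slc9a3r2). Vcam1, another leukocyte adhesion molecule, was at 691 against 568 CPM at P7 and 990 against 331 CPM at P30, and only the P30 ratio of 1.58 (1.31 to 1.85) was called.

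In lists of growth factor signalling, of 12 BMP and TGF-beta genes, 3 were higher (Bmp4, Id2, Tgfb2) and none lower, with medians of 0.27 and 0.08. Among 10 genes of VEGF, angiopoietin and apelin signalling, 2 were higher (Nrp1, Angpt1) and 1 lower (Angptl2), with medians of -0.38 and -0.54, and 87.5% of the P7 counts of Angpt1 were in 1 member. Of 6 Wnt genes, Rspo3 was higher and Wnt4 lower. Rspo3, which enhances Wnt signalling, was at 266 against 17.7 CPM and 254 against 13.4 CPM, and interstitial-type barcodes held it at 159 and 216 CPM. Of 12 genes of the basement membrane list, which does not hold Col4a3, 1 was higher (Bgn) and 2 were lower (Col4a1, Col4a2), and of 11 insulin-like growth factor and imprinted genes, 1 was higher (Igfbp4) and 3 were lower (Igfbp5, H19, Meg3). Some genes high in members were also high in interstitial-type barcodes, as Apoe, the apolipoprotein, showed: 2320 CPM in members, 474 CPM in other endothelium and 2865 CPM in interstitial-type barcodes at P7, and 3634, 733 and 5347 CPM at P30. The part of RNA from interstitial cells in these ratios was not tested.

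Without the barcodes that ended in N, 25 of 3052 measured genes were higher and 38 lower in both libraries. Tgfb2 then had a P7 ratio of -0.13, and the P7 calls of Pgm5 (1.34), Anxa8 (-0.92), Adamts5 (-0.36), Ptpre (-0.56) and Ly6c1 (-0.42) were lost. Without the deepest barcode of each class 37 of 3286 were higher. Leaving out barcodes with markers of other cell types or with 100 or more erythroid UMIs was a setting chosen after seeing the data. It left 13 and 39 members and gave 37 higher and 55 lower of 2982 measured genes.

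Members at P30 differed among themselves by which of the 4 genes they carried most. Cytl1 led in 24 members, Edn1 in 13 and Fabp4 in 10, Vwf led in none, and 1 was tied. At P7 Edn1 led in 7, Vwf in 5, and Fabp4 and Cytl1 in 1 each. Each P30 set was compared with the rest of the P30 members by the same rule of size, and the genes named were chosen after their values were seen. Higher and lower genes numbered 61 and 55 of 2587 for the Fabp4-led set (2.36% and 2.13%), 85 and 166 of 2895 for the Edn1-led set (2.94% and 5.73%), and 195 and 128 of 2862 for the Cytl1-led set (6.81% and 4.47%). The sets were defined by counts in these barcodes, so their differences are a description.

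Edn1-led members held the highest levels of Bmp4, Nrp1, Bmx, Selp and Vcam1. Bmp4 was at 668 CPM in Edn1-led, 80.4 CPM in Fabp4-led and 67.3 CPM in Cytl1-led members. Nrp1 was at 3844 CPM in the Edn1-led set, 1850 CPM in the Fabp4-led set and 1137 CPM in the Cytl1-led set. Selp stood at 1208, 603 and 277 CPM in the same order, and Vcam1 at 1774, 422 and 785 CPM. Against the rest of the members, the Edn1-led log2 ratio was 2.99 (2.16 to 3.90) for Bmp4, 1.54 (1.29 to 1.79) for Nrp1, 1.76 (1.29 to 2.23) for Selp, 1.41 (1.05 to 1.77) for Vcam1 and 1.26 (0.96 to 1.57) for Bmx. At P7, 18 of the 20 Bmp4 UMIs were in the 7 Edn1-led members, and Nrp1 was highest in them at 2269 CPM beside 1754 CPM in the 5 Vwf-led members. The other 3 genes were not highest in Edn1-led members at P7. Selp was at 113 CPM in Edn1-led and 1316 CPM in Vwf-led members, Vcam1 at 529 and 1974 CPM, and Bmx at 492 and 548 CPM.

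At P30 Cytl1-led members stood highest in Igf2, H19, Wnt2 and Olfml2a, in part from few barcodes. Igf2, the insulin-like growth factor, was at 1346 CPM in Cytl1-led members, 141 CPM in Fabp4-led members and 0 UMIs in Edn1-led members. Of 113 H19 UMIs at P30, 112 were in 4 Cytl1-led barcodes. Wnt2, a Wnt ligand, was at 209 CPM in the Cytl1-led set and had 0 and 3 UMIs in the Fabp4-led and Edn1-led sets. Olfml2a, a secreted olfactomedin-like protein, was at 381 CPM against 37.3 CPM in the rest, with counts in 14 of the 24 Cytl1-led members, so it was more widely spread in the set than H19. At P7 the 1 Cytl1-led member held Igf2 at 2723 CPM and H19 at 3063 CPM. The 7 Edn1-led P7 members held them at 718 and 529 CPM. Wnt2 had 0 UMIs in that Cytl1-led member, and among the led sets Olfml2a was highest in the Vwf-led at 658 CPM.

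At P30 Fabp4-led members stood highest in Fmo2, Fmo1, Rspo3 and Tapbp. Fmo2, a flavin monooxygenase, was at 3358 CPM in Fabp4-led, 2442 CPM in Edn1-led and 651 CPM in Cytl1-led members. Rspo3 followed the same order at 503, 347 and 74.8 CPM. Inhba, the activin A subunit, was at 965 CPM in Fabp4-led and 703 CPM in Cytl1-led members and at 64.3 CPM in Edn1-led members, with a log2 ratio of -3.54 (-5.18 to -2.28) for the Edn1-led set. Some genes that set the whole class apart varied little between the sets. Npr3 was at 181, 167 and 157 CPM in Fabp4-led, Edn1-led and Cytl1-led members, and the Cytl1-led log2 ratio of -0.13 had an interval from -1.05 to 0.79. Calcrl was at 1207, 964 and 778 CPM, with no call in any set. At P7 the 1 Fabp4-led member held Fmo2 at 891 CPM and the 7 Edn1-led members at 1512 CPM. Fmo1 was at 81.0 and 151 CPM in the same order. Among the led sets at P7, Rspo3 was highest in the Fabp4-led member at 486 CPM, as was Tapbp, from 1 UMI.

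**Figure D4:**
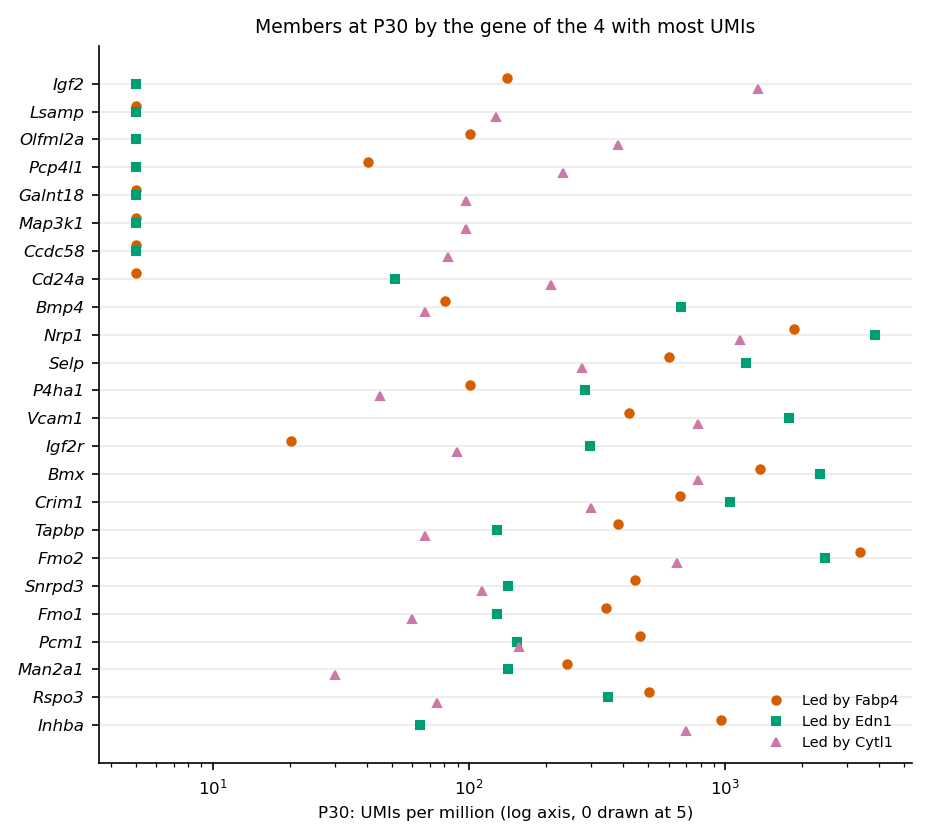
CPM (UMIs per 1000000) at P30 (log axis, 0 drawn at 5) in the 10 Fabp4-led, 13 Edn1-led and 24 Cytl1-led members for the genes named as higher in each set. Igf2 and Olfml2a have no UMI in the Edn1-led set, where Bmp4 and Nrp1 are highest.

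Between the libraries, P30 members stood higher than P7 members in MHC class I and interferon-responsive genes and in Bmx and Tm4sf1, and lower in Eln, Vcan, Fbln2 and Sele. Of 2925 measured genes, 173 were higher at P30 (5.91%) and 263 lower (8.99%). In the other endothelial barcodes 390 of 6909 were higher (5.64%) and 864 lower (12.5%). The split depends on the scaling. With median-of-ratios scaling the age ratios moved up by 0.54 on the log2 scale. Of 3487 measured genes, 527 were then higher and 120 lower, or 81.5% higher among the called genes against 39.7% with totals. All 24 genes named for age kept their calls under both scalings, and the same scaling moved the class ratios by -0.23 at P7 and 0.09 at P30. On the main scale the median of all genes was 0.28 in members and -0.15 in the other endothelial barcodes.

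H2-K1 and H2-D1 encode classical MHC class I heavy chains. H2-K1 was at 159 CPM in P7 members and 710 CPM in P30 members, a log2 ratio of 2.15 (1.20 to 3.31) beside 2.60 (2.13 to 3.12) in the other endothelial barcodes. H2-D1 was at 567 and 1326 CPM, with 1.23 beside 0.89. Of 7 measured MHC class I genes 4 were higher at P30 and none lower (median 1.23), including B2m, the light chain, at 1.88 beside 2.15. Of 24 interferon-response genes 10 were higher and none lower, with a median of 1.18, and in the other endothelial barcodes 18 of 29 were higher and 1 lower, with a median of 1.42. Ifi27l2a, an interferon-induced gene, was at 35.4 CPM in P7 members, from 2 UMIs, and at 568 CPM in P30 members. Ly6e, another such gene, had 0 UMIs in P7 members and 254 CPM at P30. Members and the rest of the endothelium thus both stood higher in these lists at P30, and the difference between their age ratios was not tested.

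Some other genes had age ratios in members that stood beside smaller or opposite ones in the rest. Tm4sf1, a membrane protein abundant in endothelium, was at 1559 CPM in P7 members and 4422 CPM in P30 members (1.50, 1.19 to 1.83), and at 889 and 1032 CPM in the other endothelial barcodes (0.22, 0.01 to 0.42). Bmx had a ratio of 1.58 (1.01 to 2.21) in members and -0.30 in the rest, where it was not called. Icam1, a leukocyte adhesion molecule, was at 88.6 and 269 CPM in members, and its ratio was 1.60 (0.31 to 3.27) in members and -1.30 (-2.36 to -0.28) in the rest. Selp, by contrast, was at 514 and 605 CPM in members, a ratio of 0.24 that was not called. Sgk1, a serum and glucocorticoid induced kinase, was at 124 and 474 CPM in members. Crim1, which binds BMPs, was at 195 and 594 CPM, a ratio of 1.61 beside 0.71 in the rest. Of the other named genes, Sdpr, a caveolar coat protein now called Cavin2, had a ratio of 1.30, and Crip1 had 1.33 beside 0.86 in the rest. Rsbn1l had 3.43 (lower bound 0.88), Zcchc6 2.36 (lower bound 0.76) and Sprr2a1 3.21 (lower bound 0.66). Tgm2, with 0 UMIs at P7, had at least 1.26.

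Matrix genes stood both lower and higher at P30: Eln, Fbln2 and Vcan were lower, while Mgp (1.62), Ltbp4 (1.57) and the proteoglycan Lum (1.20) were higher. Vcan and Lum belong to the interstitial marker list. That list summed to 20728 CPM at P7 and 24074 CPM at P30 in interstitial-type barcodes, and to 4003 and 1539 CPM in members. The part of RNA from interstitial cells in these age ratios was not tested. Eln, which encodes elastin, was at 407 CPM in P7 members and 26.1 CPM in P30 members, a log2 ratio of -3.96 (-5.43 to -2.69) beside -2.73 in the rest. Fbln2 was at 832 and 116 CPM, a ratio of -2.85 (-3.55 to -2.16) beside -2.45 in the rest. Vcan, the hyaluronan-binding proteoglycan versican, was at 1505 and 157 CPM, a ratio of -3.26 (-3.83 to -2.71). Sele was at 1240 and 254 CPM, a ratio of -2.29 (-2.79 to -1.78) beside -1.69 in the rest. H19 was at 1789 and 422 CPM, a ratio of -2.08 beside -2.48 in the rest. The ratio in members became -0.57 when at least 4 endothelial UMIs were required. Of the 101 H19 UMIs in P7 members, 14 were in Edn1-led, 18 in Cytl1-led, 1 in Vwf-led and 0 in Fabp4-led members. The others were in the 1 tied member, which had 2 endothelial UMIs. Of 6 measured basement membrane genes 3 were lower (Nid1, Lama4, Sparc) and none higher, with a median of -1.04. Of 6 measured cell cycle genes 3 were lower and none higher, with a median of -1.71. Mki67, a marker of dividing cells, had 17 UMIs in 2 P7 members and 2 UMIs in 1 P30 member, so its ratio of -5.33 rested on 2 barcodes. Gapdh, a glycolytic enzyme, was at 301 and 37.4 CPM, a ratio of -3.01 beside -1.66 in the rest. The remaining named genes, Ankrd10, Srsf6, Zzz3, Cd59b, H1f0, Lancl1, Wdfy3 and Dync1li2, had ratios from -3.14 to -2.20.

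**Figure D5:**
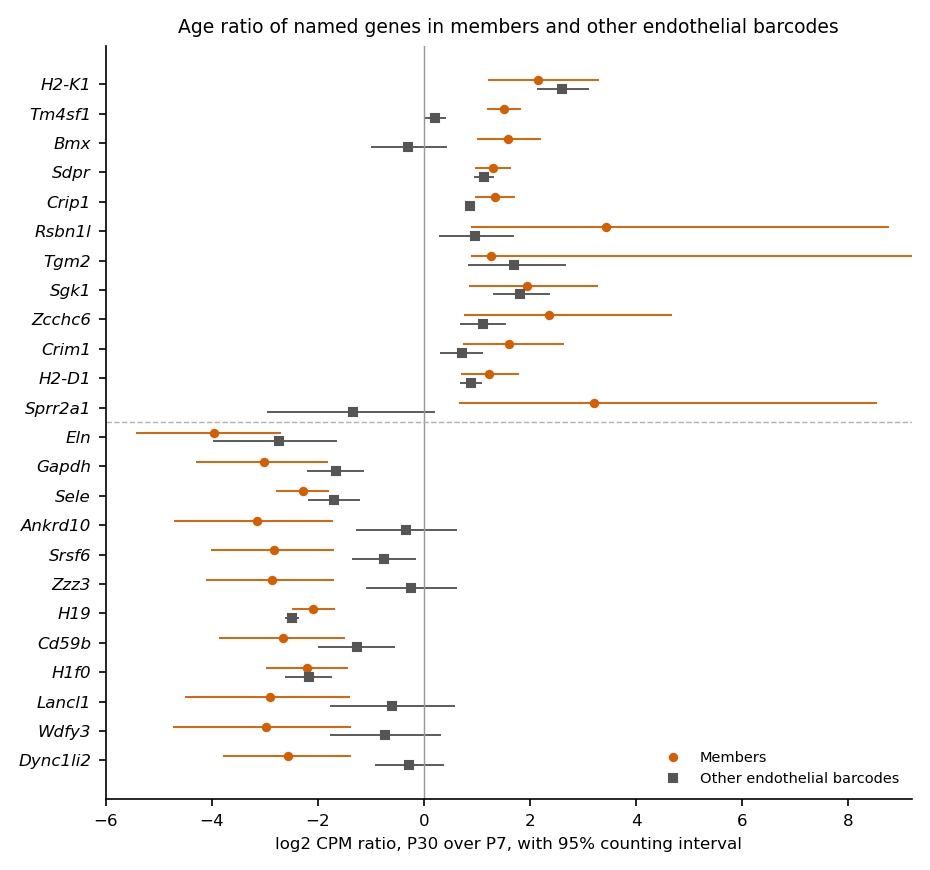
Log2 CPM ratio of P30 over P7 for the 12 named higher genes (above the dashed line) and the 12 named lower genes (below it), with 95% counting intervals, in members (circles) and in the other endothelial barcodes (squares). H2-K1 lies above 2 in both, whereas Bmx is at 1.58 in members and -0.30 in the rest.

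Composition differed between the libraries along with these ratios. Cytl1 led 1 of 15 members at P7 and 24 of 48 at P30. Restricted to members led by Edn1 (7 and 13 barcodes, a setting chosen after seeing the data), 119 of 1139 measured genes were higher and 112 lower at P30. Without the barcodes that ended in N, 83 of 2461 measured genes were higher and 86 lower. The calls of Tm4sf1 (0.77), H2-D1 (0.79), Crip1 (0.90), Crim1 (0.99), Sgk1 (1.32), Rsbn1l (0.69), Sprr2a1 (2.18), Tgm2 (0.05) and Wdfy3 (-2.28) were lost.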

How the data were processed

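Single-cell suspensions of mouse heart valves were run through Drop-seq, and the 3' ends of cDNA were sequenced, per the labels' protocols. The values used are UMI counts per gene and barcode as deposited by the authors, whole numbers with no normalization. Per the submitters' processing notes, the tool Bowtie2 2.2.7 and the build mm10 belong to the pipeline, in roles left unstated. The counting program, annotation and strand setting were not given in the sources used here. Gene positions came from GENCODE for the same build. No barcode map to animals was used.

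Counts were summed over the barcodes of a class within each library and scaled to 1000000 (CPM) with numpy 2.4.6, pandas 2.3.3 and scipy 1.17.1. Ratios carry 95% exact binomial intervals, given the total count of both groups, CPM exact Poisson intervals and shares Clopper-Pearson intervals. A group without a count was set at a floor of 3 counts and the ratio given as a bound. PCR duplicates were removed only as far as UMIs allow. Intervals of ratios and CPM treat UMIs pooled over barcodes as independent. They cover counting error only and leave out variation between cells and between animals. The script was tested on simulated data.

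Members and the 37 gene lists were chosen with earlier results of these data known. Single genes were the 14 per direction for the class and 12 for age (8 for the sets by leading gene, a rule set after values were seen) whose interval kept the largest distance from equal levels, with UMIs in at least 5 barcodes. This rule skipped the 20 rule genes, haemoglobin, ribosomal protein, mitochondrial and unnamed genes and any gene whose interstitial-type level exceeded 50% of the higher class. Other genes are list members, except Malat1, mt-Rnr2, Apoe, Fmo2, Hlf and Tbx5, chosen after their values were seen. Cdc42bpa and Gm20417 are further exceptions, named because their class calls were opposite in the libraries. No doublet caller was run. Doublets were limited by the 20000 UMI maximum and by alternatives that leave out barcodes with markers of other types.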

Additional observations from a re-analysis of the deposited data

Results flagged for a closer look

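Some genes were called in opposite directions in groups set side by side. In each case the difference itself was not tested, and each library is 1 sample. Values are log2 CPM ratios.

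For P30 over P7, haemoglobin genes were higher in members and lower in the other endothelial barcodes: Hba-a1 at 2.77 and -2.94, Hba-a2 at 2.74 and -3.07, Hbb-bs at 2.37 and -2.58, and Hbb-bt at 2.36 and -3.31. For members over other endothelial barcodes, 3 of them were lower at P7 and higher at P30: Hba-a1 at -1.50 and 4.21, Hba-a2 at -1.46 and 4.35, and Hbb-bt at -1.01 and 4.67. At P30, 2 members carried 96.7% of the erythroid UMIs of all members.

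Icam1 had an age ratio of 1.60 in members and -1.30 in the other endothelial barcodes. Hspb1, a small heat shock protein, had 1.96 and -1.24, with levels of 106 and 415 CPM in members and 1266 and 537 CPM in the rest. Cd36 had -2.14 and 1.37, and 12 of its 13 UMIs in P7 members were in 1 barcode. Vcan was higher in members than in the other endothelial barcodes at P7 (1.69) and lower at P30 (-1.14).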

How the results depend on the processing

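Of the ratios of named genes under the alternatives, 552 for the class and 204 for age kept direction and call, 36 and 42 kept direction without the call, and 3 and 1 changed direction. Of list medians, 790 moved by less than their spread over members, 48 by more, and 7 changed sign. The cause of each change was not tested, except that thinning and filters leave fewer counts.

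Counts that moved by more than 1.5 times, shares outside their main interval and ratios that changed sign are given next, higher before lower. Medians that changed sign are given where their main interval excluded 0. Median-of-ratios scaling gave 527 and 120 of 3487 measured genes for age. Without the filter on low counts, 662 of 12534 genes were lower for age, 216 higher in Fabp4-led and 146 higher in Edn1-led members. With barcodes thinned to 500 UMIs, the class had 7 and 3 of 449 measured genes and age 40 and 18 of 355. Fabp4-led members had 5 and 8, Edn1-led 13 and 4, and Cytl1-led 6 and 12, with Bmx at -0.59 (P7) and Pgm5 at -0.27 (P30). With class assigned on thinned barcodes but full counts summed, 8 and 11 members remained. The class then had 19 and 27 of 1461 measured genes and age 89 and 86 of 1021. Without the UMI limit, 173 of 4916 measured genes were lower for the class, and age had 353 and 511 of 4476. Fabp4-led members had 95 and 107, and P7 medians became -0.11 for complement and 0.59 for cell cycle. Without barcodes ending in N, the class had 25 and 38 of 3052, age had 83 and 86 of 2461, and Tgfb2 was at -0.13 (P7).

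Without barcodes carrying markers of other types (5 erythroid UMIs or more), 2 members remained at P7. The class then had 3 and 2 of 770 measured genes and age 22 and 19 of 1845. Fabp4-led members had 33 and 32, Cytl1-led 102 higher, and the P7 share was 8.70%. Crip1 for age was -0.20, age medians were -1.26 (venous), -2.50 (interferon) and -1.33 (oxidative phosphorylation), and the P7 cell cycle median was 1.22. With 4 endothelial UMIs required, the P30 share was 31.7%. Without the deepest barcodes, 37 of 3286 measured genes were higher in the class. Of the settings chosen after seeing the data, Edn1-led members alone had 29 of 2649 measured genes higher in the class and 112 of 1139 lower for age. The rule without Cytl1 gave a P30 share of 15.9% and a P30 interferon median of -0.0015. An erythroid limit of 100 UMIs gave 37 of 2982 higher in the class and 170 of 2275 lower for age.

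The ratios of named genes that gave no direction numbered 18 with thinning, 22 with the marker filter and 2 with Edn1-led members. No paired analysis was possible because each age has 1 library. The floor of 3 counts that stands for no UMI equals 53.1 CPM in P7 members, so genes at low levels at P7 may have been missed at this depth.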

Other observations

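Fmo2, Hlf, Tbx5 and Ptn, picked after their values were seen, were higher in members than in both the Prox1 and the Wnt9b type in each library. Fmo2 was at 903 CPM in P7 members against 191 CPM in the other endothelial barcodes and at 1729 against 68.6 CPM at P30, with log2 ratios of 2.24 and 4.66 (4.19 to 5.15). Its P7 counts came from 4 members. Hlf, a circadian output transcription factor, was at 212 against 35.3 CPM at P7, from 3 members, and at 187 against 8.36 CPM at P30, from 20 members. Tbx5, a transcription factor of heart development, was at 212 against 5.89 CPM at P7, from 3 members, and at 97.1 against 16.7 CPM at P30, from 15 members. Ptn, a heparin-binding growth factor, was at 744 against 58.9 CPM and 661 against 174 CPM, and interstitial-type barcodes held it at 1217 and 761 CPM.

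Of all 3494 genes measured in both libraries, 2238 (64.1%) had class ratios of the same sign at P7 and P30, 132 were called the same way in both, and 6 were called in opposite directions. The 6 were Cdc42bpa, Gm20417, Vcan and the haemoglobin genes Hba-a1, Hba-a2 and Hbb-bt.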
